A study of Mus musculus with 10 samples.

Results

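The 40 genes described here mark the 3 kinds of non-neural cell that line, wrap and cover the vessels and surface of the developing brain. They comprise 16 genes of endothelial cells, 10 genes of mural cells (pericytes and vascular smooth muscle) and 14 genes of meningeal fibroblasts and their matrix. They were taken by gene symbol from a table of 53801 genes, and all 40 were found. No measured value enters the rule, although the list itself was drawn up with earlier results of these data known. The question put to them is whether a population collected as NG2+ carries more mural RNA than one collected as GFAP+, because NG2, the proteoglycan encoded by Cspg4, also marks pericytes.

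NG2 cells and GFAP cells of the mouse dorsal brain were compared by bulk RNA sequencing, with 5 libraries of NG2 cells and 5 of GFAP cells. Both groups are WT mice electroporated in utero at embryonic day 12 with StarTrack, a set of integrating reporter plasmids used to trace the descendants of single progenitors, and both were collected at embryonic day 14 by flow sorting after the tissue was dissociated. The labels call all 10 libraries neural stem cells of batch 1, and they give no strain and do not say whether the sort read an antibody or a reporter. They also do not say whether the 5 libraries of a group came from separate animals or litters, so the p-values measure the spread between these libraries only.

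Endothelial cells form the inner wall of each vessel and, in brain, seal it with tight junctions into the blood-brain barrier. Pericytes sit on the outside of the same capillaries, held there by PDGF-B signalling from the endothelium to the receptor Pdgfrb, and both cell types build a shared basement membrane of type IV collagen. Meningeal fibroblasts cover the cortical surface, secrete fibrillar collagens and are the source of retinoic acid for the embryonic cortex.

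The libraries held 12945436 to 17569730 counted reads. NG2 library 5 stood apart from the other 9: it was the deepest, yet had reads for 18903 genes, against 22988 to 24444 in the others, and its correlation with each of them was at most 0.929 on the log2 scale. Of 1756 genes with a mean of 1 to 2 CPM (counts scaled to library size by edgeR's TMM method) in the other libraries, 21.4% were at 0 reads in NG2 library 5, against at most 0.572% in any other library. Because most of the 40 genes lie in or below that range, the fold changes that turn on NG2 library 5 are given with and without it. Cspg4 separated the groups, with 6.75 ± 1.47 CPM in NG2 cells and 1.07 ± 0.356 CPM in GFAP cells (SD, n = 5 each; log2 fold change 2.64, SE 0.30; edgeR quasi-likelihood adjusted p = 0.00256). Gfap had 6 reads over all NG2 libraries and 10 reads over all GFAP libraries and could not check its label. Neural genes dominated both populations: 10 radial glia genes summed to 631 ± 154 FPKM in NG2 cells and 706 ± 129 FPKM in GFAP cells, 8 genes of intermediate progenitors to 850 ± 45.1 FPKM in NG2 cells and 973 ± 75.1 FPKM in GFAP cells, and 9 neuronal genes to 2173.4 ± 322 FPKM in NG2 cells and 1745.6 ± 149 FPKM in GFAP cells (SD, n = 5 each).

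Some of the regulatory sequence of these genes is shown here, because the mural contractile genes are textbook targets of serum response factor, which reads the CArG box (CC, 6 letters that are each A or T, then GG). The sequences are from RefSeq on GRCm38.p6. The RefSeq table held the 250 bases upstream of the start for 26 of the 40 genes, in 11 endothelial, 6 mural and 9 meningeal genes. The stretches below lie upstream of each gene in the direction of its transcription, and capitals mark a CArG box, or one with 1 of its 6 A or T letters replaced, in the contractile genes Acta2 and Myl9.
Acta2, chr19:34255374-34255623, minus strand: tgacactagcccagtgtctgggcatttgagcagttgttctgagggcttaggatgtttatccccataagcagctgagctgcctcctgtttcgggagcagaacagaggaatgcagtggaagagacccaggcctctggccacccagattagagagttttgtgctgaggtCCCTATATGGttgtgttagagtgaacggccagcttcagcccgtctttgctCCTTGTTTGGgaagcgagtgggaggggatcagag
Myl9, chr2:156775214-156775419, plus strand, cut at the start of the gene as deposited: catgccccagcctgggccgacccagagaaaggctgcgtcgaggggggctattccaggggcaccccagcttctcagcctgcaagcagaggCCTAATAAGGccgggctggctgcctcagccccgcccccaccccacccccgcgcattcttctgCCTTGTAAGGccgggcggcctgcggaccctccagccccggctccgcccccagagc
Myl9 held the intact box CCTAATAAGG 117 to 108 bases upstream of its deposited start and the altered box CCTTGTAAGG 55 to 46 bases upstream. Acta2 held 2 altered boxes, CCCTATATGG at 84 to 75 and CCTTGTTTGG at 34 to 25 bases upstream of its RefSeq start. The intact box stood in 1.47% of the 32851 upstream windows in the RefSeq table and, of the 26 genes, in Myl9 alone. The altered form, counted apart from the intact box, stood in 7.24% of all windows and in 6 of the 26 genes (Acta2, Col1a2, Egfl7, Eng, Kdr and Myl9). A match is a run of letters on either strand and does not show a bound site. Both upstream windows hold such boxes, while the level of Myl9 was far above that of Acta2, as given below.

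Of the 40 genes, the endothelial gene and the fibrillar collagen with the highest mean FPKM, Cldn5 and Col3a1, are shown for contrast. Capitals mark CCAAT, the Sp1 box GGGCGG and the TATA box TATAAA on either strand.
Cldn5, chr16:18776597-18776846, plus strand: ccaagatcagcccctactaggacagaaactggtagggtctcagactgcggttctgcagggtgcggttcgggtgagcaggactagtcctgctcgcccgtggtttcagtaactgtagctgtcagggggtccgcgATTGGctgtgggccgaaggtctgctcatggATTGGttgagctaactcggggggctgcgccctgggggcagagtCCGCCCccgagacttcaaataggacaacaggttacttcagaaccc
Col3a1, chr1:45311288-45311537, plus strand: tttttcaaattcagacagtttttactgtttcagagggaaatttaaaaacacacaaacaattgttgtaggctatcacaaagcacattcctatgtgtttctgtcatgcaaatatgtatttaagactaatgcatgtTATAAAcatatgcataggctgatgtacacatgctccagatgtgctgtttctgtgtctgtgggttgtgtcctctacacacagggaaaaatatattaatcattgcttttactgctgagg
The Cldn5 window was 59.6% G or C and carried CCAAT in its reverse form 118 to 114 and 88 to 84 bases upstream, and the Sp1 box 45 to 40 bases upstream. The Col3a1 window was 35.2% G or C and carried TATAAA 117 to 112 bases upstream. CCAAT stood in 33.8% of all windows and in 12 of the 26 genes, GGGCGG in 32.7% and 14 genes, and TATAAA in 12.4% and 5 genes. The letters GGAA, the core read by ETS factors of endothelial cells, stood in 93.4% of all windows and in 10 of the 11 endothelial genes with a window, all but Cldn5. ACAAT, a core read by SOX factors, stood in 27.7% of all windows and in 3 of these 11 genes. Both stood together in 26.1% of all windows and in 3 of the 11 endothelial genes.

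The level of the 40 genes was low. On the per-length FPKM scale, which allows genes to be set beside each other, 7 of the 40 averaged at least 1 FPKM over the 10 libraries and 33 lay below it. Igfbp2, a secreted binding protein for insulin-like growth factors, led by far with 215 FPKM, above 98.9% of the 16187 genes tested. Crabp2, a carrier of retinoic acid to its nuclear receptor, followed with 7.33 FPKM, and Myl9, a myosin light chain of smooth muscle, with 7.03 FPKM. Cldn5, the main claudin of brain endothelial tight junctions, had 2.66 FPKM, and Vtn, the secreted adhesion protein vitronectin made by brain pericytes, 2.29 FPKM. Egfl7, a secreted endothelial matrix protein, had 1.56 FPKM and Esam, an endothelial adhesion molecule, 1.02 FPKM. Neighbours in this order from Crabp2 to Myl9 and from Cldn5 to Esam lay within the spread of their libraries. The median gene of the list had 0.187 FPKM among endothelial, 0.351 FPKM among mural and 0.435 FPKM among meningeal genes, against 4.82 FPKM over all genes tested, and 9 of the 40 lay below 0.1 FPKM. Igfbp2 stood apart from every other meningeal gene in level, so the meningeal sum below is given with and without it.

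**Figure D1:**
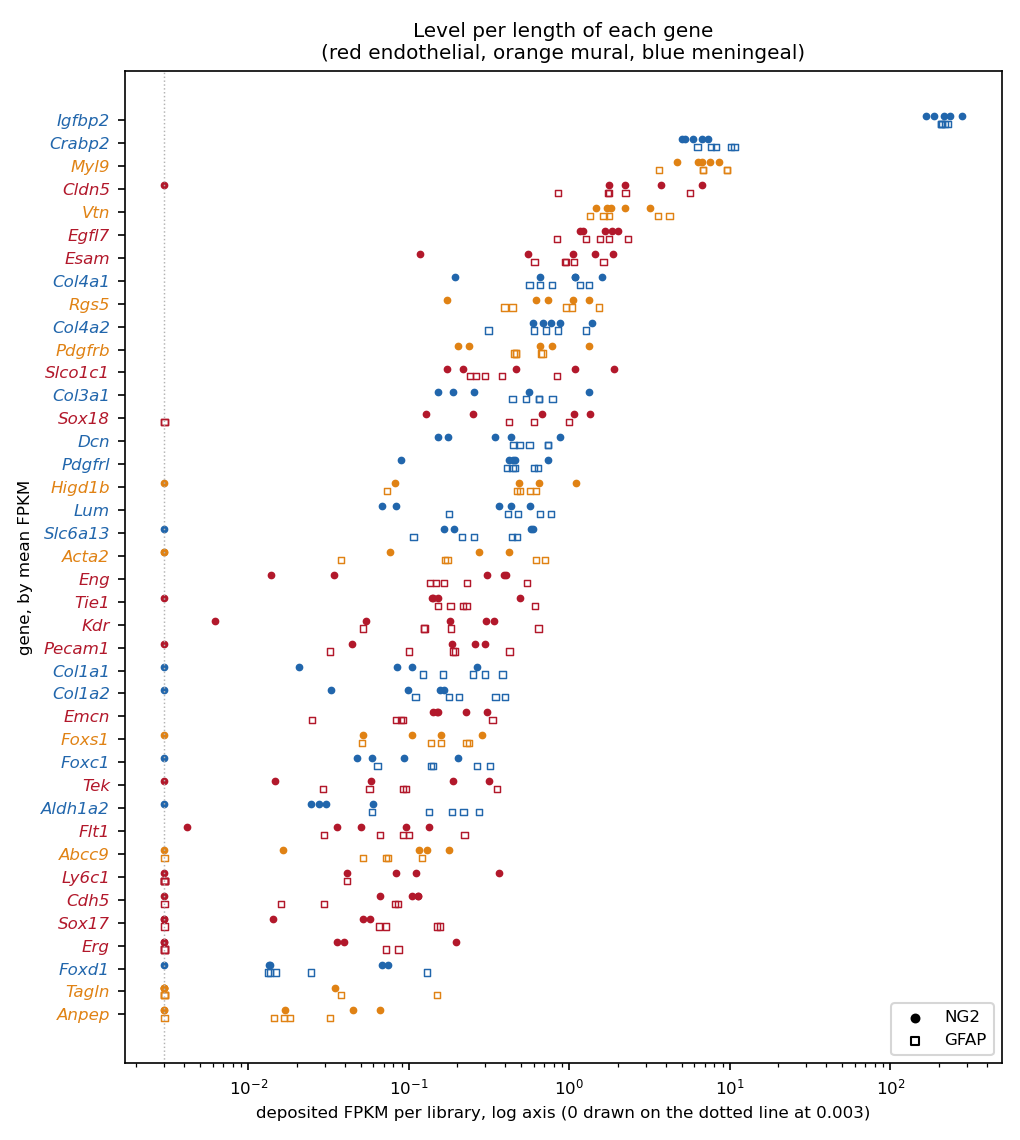
FPKM in each library (log axis, filled points for NG2 and open squares for GFAP libraries) for each of the 40 genes in order of their mean level, with a value of 0 drawn on the dotted line at 0.003 and colours for endothelial, mural and meningeal genes. Igfbp2, with a mean of 215 FPKM, stands apart from the next gene, Crabp2, with a mean of 7.33 FPKM, and 33 genes have a mean under 1 FPKM.

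A minimum on counts left 27 of the 40 genes for the test across all genes, namely 11 of 16 endothelial, 4 of 10 mural and 12 of 14 meningeal genes. None of the 27 passed edgeR's quasi-likelihood test in either direction at an adjusted p of 0.05, where 0.148% of the 16187 genes tested did. At an unadjusted p under 0.05 there were 0 genes higher in NG2 cells, against 6.45% of all genes, and 2 lower (Crabp2 and Col1a2), against 6.33% of all genes. DESeq2 called 0 of the 17 to which it gave an adjusted p, against 2.29% of all its genes. At an unadjusted p under 0.05 it had 0 of the 17 higher, against 8.55% of all genes, and 2 lower (again Crabp2 and Col1a2), against 6.97%. Voom with sample weights called 0 of 27, against 8.9% of all genes, and edgeR without NG2 library 5 called 0 of 28, against 0.71%. No gene of the 27 had groups that did not overlap over 5 against 5 libraries, against 3.28% of all genes tested. In the authors' deposited table none of the 40 genes had an adjusted p under 0.05. The log2 fold change (NG2 over GFAP) was positive for 10 and negative for 17 of the 27, with a median of -0.17, beside -0.01 and a negative share of 51.5% over all genes. In bulk RNA, fewer cells of a type and less RNA per cell cannot be told apart.

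**Figure D2:**
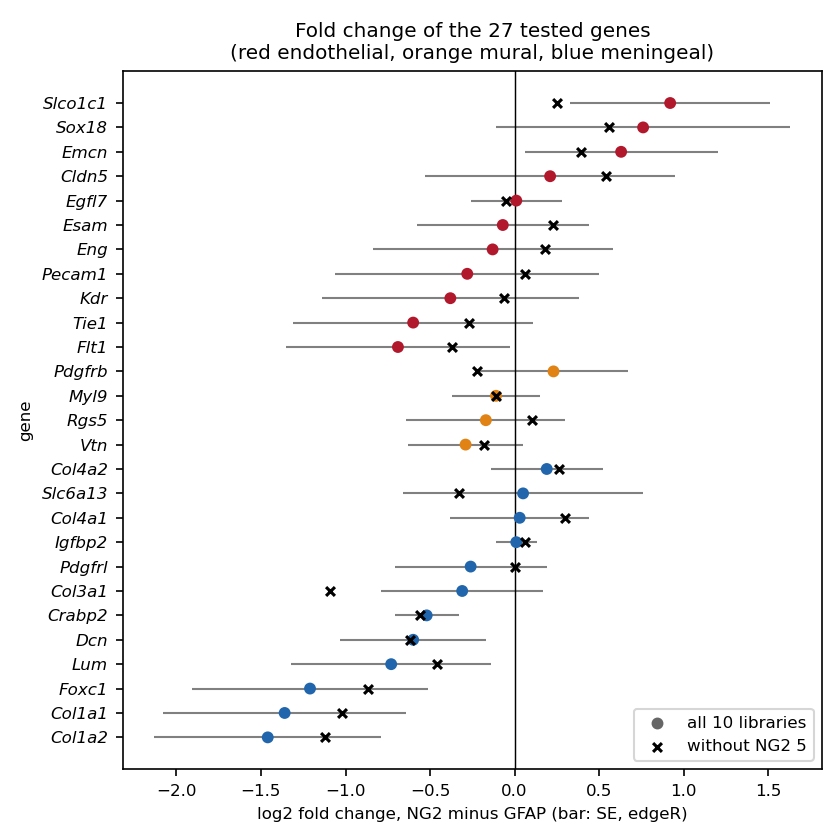
Log2 fold change of NG2 over GFAP cells for the 27 genes tested, with bars of 1 standard error, and crosses for the fit without NG2 library 5. The values run from Col1a2 at -1.46 to Slco1c1 at 0.92, and the crosses of Slco1c1 and Col3a1 lie at 0.25 and -1.09 without that library.

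None of the endothelial genes tested differed between NG2 and GFAP cells beyond the spread of the libraries. The fold change was positive for 5 and negative for 6 of the 11 tested, with a median of -0.07, which was 0.18 without NG2 library 5. What varied was the library. Cldn5 (ENSMUSG00000041378, chromosome 16, 18776847 to 18778260, plus strand, GRCm38.p6) had 3.14, 5.3, 2.5, 9.53 and 0 CPM in NG2 libraries 1 to 5, against 8.11, 3.2, 2.5, 2.52 and 1.23 CPM in GFAP libraries 1 to 5. NG2 library 4 and GFAP library 1 were high, NG2 library 5 had no read, and the groups overlapped. Its log2 fold change was 0.21 (SE 0.74; edgeR adjusted p = 0.938), and 0.54 without NG2 library 5 (edgeR adjusted p = 0.576).

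The same libraries led through most of the endothelial genes. Kdr, the main receptor for VEGF-A, had 1.64, 2.75, 0.487, 3.07 and 0.0564 CPM in NG2 libraries 1 to 5, against 5.92, 1.13, 1.14, 1.68 and 0.477 CPM in GFAP libraries 1 to 5. Esam had 3, 4.13, 1.6, 5.39 and 0.338 CPM in NG2 libraries, against 4.76, 2.76, 3.11, 2.73 and 1.77 CPM in GFAP libraries. In both genes NG2 library 4 and GFAP library 1 were the highest of their groups and NG2 library 5 the lowest of all. Over the 11 tested endothelial genes, NG2 library 4 was the highest NG2 library for 7 and GFAP library 1 the highest GFAP library for 9. This was not particular to endothelial genes. Over the 12 tested meningeal genes NG2 library 4 was highest for 7 and GFAP library 1 for 7. Over the 4 mural genes they were highest for 3 and 1. Over the 11 endothelial genes NG2 library 5 was the lowest NG2 library for 7, and GFAP library 5 the lowest GFAP library for 7. They were lowest for 6 and 3 of the 12 meningeal genes, and for 2 and 2 of the 4 mural genes. The share over all genes was not computed for any of these counts. The genes at 0 reads in NG2 library 5 included Cldn5, the adhesion molecule Pecam1, the endothelial cadherin Cdh5 and the angiopoietin receptor system genes Tek and Tie1. For Esam the fitted log2 difference was -0.07 (SE 0.51; edgeR adjusted p = 0.971), and 0.23 without NG2 library 5.

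Egfl7 (ENSMUSG00000026921, chromosome 2, 26580014 to 26593120, plus strand) followed that pattern in part. It had 4.37, 4.2, 5.98, 7.21 and 6.65 CPM in NG2 libraries, against 6.46, 8.41, 5.62, 4.62 and 3.06 CPM in GFAP libraries, with a log2 fold change of 0.01 (SE 0.27; edgeR adjusted p = 0.991). NG2 library 4 was again the highest NG2 library and GFAP library 5 the lowest GFAP library, but GFAP library 2 led its group and NG2 library 5 lay within the range of the others. Egfl7 overlaps Agpat2, a gene of lipid synthesis on the opposite strand with 277 reads in all, and Eng, a co-receptor for TGF-beta family ligands, overlaps Fpgs with 2633 reads. Whether the counting used strand is not given in the sources used here. The values of Egfl7 and Eng are therefore uncertain.

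Slco1c1, the thyroxine transporter of the blood-brain barrier, had the most positive fold change of the 11 endothelial genes tested, and it is named for that after its values were seen. It had 5.59, 2.41, 0.904, 1.13 and 9.97 CPM in NG2 libraries, against 2.01, 1.38, 4.4, 1.26 and 1.57 CPM in GFAP libraries. NG2 libraries 5 and 1 were high, and the other 3 lay inside the GFAP range or below it. Its log2 fold change was 0.92 (SE 0.59; edgeR adjusted p = 0.547) and 0.25 without NG2 library 5, which alone gave 177 of the 325 NG2 reads. Voom with sample weights gave -0.44. Choroid plexus epithelium also expresses Slco1c1. The 9 choroid plexus genes summed to 3.24 to 35.6 FPKM in NG2 libraries and 3.77 to 218 FPKM in GFAP libraries. NG2 library 1, next highest for Slco1c1, had the highest NG2 sum, 35.6 FPKM. NG2 library 5, the highest for Slco1c1, had 3.35 FPKM. There 6 of the 9 were at 0 reads, as were 8 of the 16 endothelial genes. The source of the Slco1c1 reads was not tested.

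The endothelial genes too low for the test were Tek, Cdh5, Sox17, Erg and Ly6c1. Tek had 42 reads over the NG2 libraries and 47 over the GFAP libraries, Cdh5 had 25 reads in NG2 and 14 in GFAP libraries, and Erg, an ETS factor of endothelial identity, 14 reads in NG2 and 9 in GFAP libraries. Ly6c1, a surface protein of endothelial cells, had 15 reads in NG2 and 1 read in GFAP libraries, while Sox17, a factor of arterial endothelium, had 9 reads in NG2 and 32 in GFAP libraries. With no minimum on counts, edgeR gave Ly6c1 a log2 fold change of 3.27 (adjusted p = 0.374) and Sox17 one of -1.79 (adjusted p = 0.539), where 0.305% of 31106 genes were called.

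**Figure D3:**
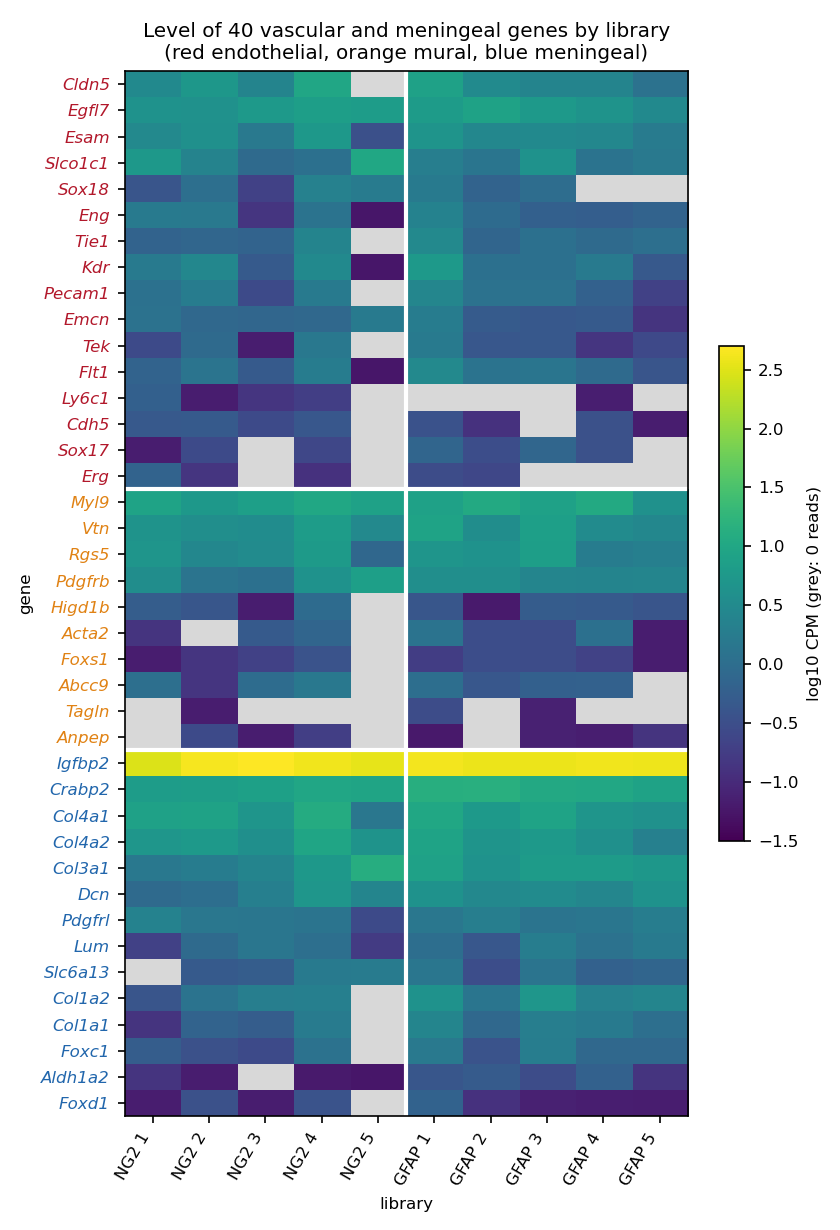
Heat map of the log10 of CPM in each library (columns, NG2 left of GFAP) for the 40 genes, grouped as endothelial, mural and meningeal, with grey for 0 reads. Cldn5 is at 9.53 CPM in NG2 library 4 and 8.11 CPM in GFAP library 1, and NG2 library 5 has no Cldn5 read while holding 13.1 CPM of Col3a1.

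None of the mural genes tested differed between NG2 and GFAP cells beyond the spread of the libraries, while Cspg4, itself a pericyte gene, was higher in NG2 cells. Of the 4 tested, Pdgfrb had a positive fold change and Rgs5, Vtn and Myl9 negative ones, with a median of -0.14. Without NG2 library 5 the median was -0.11, but over 5 genes, because Abcc9 then passed the minimum on counts. Abcc9 had a log2 fold change of 0.77 in that fit (edgeR adjusted p = 0.582), so the 2 medians are not over the same genes. Pdgfrb, the receptor that recruits and keeps pericytes, had 3.62, 1.31, 1.11, 4.33 and 7.33 CPM in NG2 libraries, against 3.72, 3.77, 2.58, 2.52 and 2.59 CPM in GFAP libraries. The NG2 libraries lay on both sides of the narrow GFAP range. Pdgfrb had a fitted log2 fold change of 0.23 (SE 0.44; edgeR adjusted p = 0.872), and of -0.22 without NG2 library 5.

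Rgs5, a regulator of G-protein signalling that marks brain pericytes (ENSMUSG00000026678, chromosome 1, 169655501 to 169695813, plus strand), had 4.84, 2.82, 3.34, 6.08 and 0.789 CPM in NG2 libraries, against 4.82, 4.4, 7.06, 1.82 and 2.04 CPM in GFAP libraries. Its log2 fold change was -0.17 (SE 0.47; edgeR adjusted p = 0.918), and 0.10 without NG2 library 5. NG2 library 5 was thus the highest library for Pdgfrb and the lowest for Rgs5. Vtn (ENSMUSG00000017344, chromosome 11, 78499091 to 78502324, plus strand) had 4.5, 3.72, 3.48, 6.52 and 2.99 CPM in NG2 libraries, against 8.72, 3.64, 7.36, 3.36 and 2.79 CPM in GFAP libraries. For Vtn it was -0.29 (SE 0.34; edgeR adjusted p = 0.772), and -0.18 without NG2 library 5.

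Myl9 (ENSMUSG00000067818, chromosome 2, 156775420 to 156781658, plus strand) was the highest mural gene. It had 8.8, 5.44, 7.37, 10.1 and 7.89 CPM in NG2 libraries, against 8.05, 11.2, 7.97, 11.3 and 4.29 CPM in GFAP libraries, with a log2 fold change of -0.11 (SE 0.26; edgeR adjusted p = 0.894). Acta2 and Tagln, also genes of smooth muscle, had few reads. Acta2, the smooth muscle actin whose altered CArG boxes are printed above, had 21 reads over the NG2 libraries and 47 over the GFAP libraries. Tagln, the actin-binding protein transgelin, had 1 read in NG2 and 6 reads in GFAP libraries and was at 0 in 7 of the 10, and it overlaps Pcsk7, which had 5397 reads on the opposite strand. On the per-length scale Myl9 averaged 7.03 FPKM, Acta2 0.247 FPKM and Tagln 0.0223 FPKM. Myl9 was thus present in all 10 libraries, as Acta2 and Tagln were not.

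The further pericyte genes were low in both groups. Abcc9, the sulphonylurea receptor of pericyte potassium channels, had 56 reads in NG2 and 41 in GFAP libraries, and Higd1b 30 in NG2 and 28 in GFAP libraries. Foxs1, a forkhead factor, had 12 reads in NG2 and 16 in GFAP libraries, and Anpep, the surface peptidase CD13, 8 reads in NG2 and 5 in GFAP libraries. Summed over all 10 mural genes, the level was 11.1 ± 3.1 FPKM in NG2 cells (8.05 to 15.9) and 12.3 ± 3.25 FPKM in GFAP cells (6.48 to 14.3; SD, n = 5 each). Cspg4 had a log2 fold change of 2.64, and each of the 4 mural genes tested lay between -0.29 and 0.23 (SE 0.26 to 0.47). The other 6 mural genes had too few reads for the test. With no minimum on counts, edgeR gave log2 fold changes of 0.44 for Abcc9, 0.05 for Higd1b and 0.59 for Anpep. It gave -0.43 for Foxs1, -1.15 for Acta2 and a lower value still for Tagln. Their SEs were all above those of the 4 tested genes, up to 1.36 for Tagln. These 6 fits therefore do not decide whether mural RNA differed.

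Among the 14 meningeal genes, several collagen and fibroblast genes had lower values in NG2 cells, but none passed the test over all genes. The fold change was positive for 4 and negative for 8 of the 12 tested, with a median of -0.41 (-0.51 without NG2 library 5), beside -0.01 over all genes. Col1a2, a chain of type I collagen (ENSMUSG00000029661, chromosome 6, 4504814 to 4541544, plus strand), had 0.409, 1.24, 1.95, 2.07 and 0 CPM in NG2 libraries, against 4.39, 1.38, 5.01, 2.24 and 2.59 CPM in GFAP libraries. GFAP library 2 overlapped the NG2 range and the other 4 GFAP libraries lay above it. The log2 fold change was -1.46 (SE 0.67), with an unadjusted p of 0.0473 and an edgeR adjusted p of 0.386, which ran from 0.0963 to 0.591 over the alternative settings. Without NG2 library 5 the log2 fold change was -1.12 (edgeR adjusted p = 0.215).

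Col1a1, the other chain of type I collagen, had 0.136, 0.689, 0.556, 1.76 and 0 CPM in NG2 libraries, against 2.56, 0.816, 1.97, 1.68 and 1.09 CPM in GFAP libraries. Its log2 fold change was -1.36 (SE 0.72; edgeR adjusted p = 0.447), and -1.02 without NG2 library 5 (edgeR adjusted p = 0.332). Both type I chains averaged 0.169 FPKM, NG2 library 4 was the highest NG2 library for each, and NG2 library 5 had no read of either.

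Col3a1, the chain of type III collagen, parted from them in NG2 library 5. It had 1.5, 1.86, 2.5, 5.52 and 13.1 CPM in NG2 libraries, against 7.87, 4.4, 6.45, 6.44 and 5.38 CPM in GFAP libraries. NG2 library 5, with 233 reads and none of type I collagen, was above every other library, and NG2 libraries 1 to 3 were below every GFAP library. The log2 fold change was -0.31 (SE 0.48; edgeR adjusted p = 0.835). Without NG2 library 5 it was -1.09, with an unadjusted p of 0.00477 and an edgeR adjusted p of 0.124, and over all alternative settings the adjusted p ran from 0.0725 to 0.963. Col1a1 and Col3a1 are named after their values were seen.

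Crabp2 (ENSMUSG00000004885, chromosome 3, 87948666 to 87953376, plus strand) showed the smallest unadjusted p of the 27 genes. It had 6.69, 6.96, 7.79, 9.78 and 8.96 CPM in NG2 libraries, against 13.8, 14.3, 10.9, 10.3 and 8.44 CPM in GFAP libraries, so that GFAP library 5 alone overlapped the NG2 range. The log2 fold change was -0.52 (SE 0.19), with an unadjusted p of 0.0154 and an edgeR adjusted p of 0.292. Over the alternative settings the log2 fold change ran from -0.61 to -0.3 and the adjusted p from 0.151 to 0.475. Aldh1a2, the enzyme that makes the retinoic acid Crabp2 binds, was too low for the test. It had 2, 1, 0, 1 and 1 reads in NG2 libraries, against 7, 8, 4, 9 and 2 reads in GFAP libraries, in sum 5 reads in NG2 and 30 in GFAP cells. With no minimum on counts its log2 fold change was -2.48 (SE 0.90), with an unadjusted p of 0.00998 and an edgeR adjusted p of 0.318. A minimum on counts had removed it.

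Igfbp2 (ENSMUSG00000039323, chromosome 1, 72824503 to 72852474, plus strand) had 306, 439, 519, 400 and 349 CPM in NG2 libraries, against 430, 384, 384, 408 and 392 CPM in GFAP libraries. The NG2 libraries spread to both sides of the GFAP libraries, and the log2 fold change was 0.01 (SE 0.12; edgeR adjusted p = 0.982), and 0.06 without NG2 library 5. Igfbp2 is known to be expressed in embryonic neuroepithelium as well as in the meninges. It did not follow the collagens: NG2 library 3 was the highest for Igfbp2, while NG2 libraries 4 and 5 were the highest of their group for Col1a2 and Col3a1.

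The type IV collagens, which vessels and meninges both deposit, had other values than the fibrillar chains. Col4a1 had 8.12, 8.19, 4.94, 12 and 1.47 CPM in NG2 libraries, against 10.1, 5.9, 8.73, 4.97 and 4.29 CPM in GFAP libraries. Col4a2 had 5.12, 5.78, 3.96, 9.22 and 4.62 CPM in NG2 libraries, against 8.54, 4.77, 5.69, 4.06 and 2.11 CPM in GFAP libraries. NG2 library 4 and GFAP library 1 led in both, as in Cldn5. Fold changes on the log2 scale were 0.03 for Col4a1 (SE 0.41; edgeR adjusted p = 0.984) and 0.19 for Col4a2 (SE 0.33; edgeR adjusted p = 0.86), and without NG2 library 5 they were 0.30 for Col4a1 and 0.26 for Col4a2. The genes lie head to head on chromosome 8, Col4a1 at 11198423 to 11312826 on the minus strand and Col4a2 at 11312805 to 11449287 on the plus strand, so that their starts share 22 bases, printed on the plus strand with the Sp1 box in capitals.
Col4a1 and Col4a2, chr8:11312805-11312826, plus strand: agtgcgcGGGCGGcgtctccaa
Whether the counting used strand is not given, so how reads over these bases were counted is not known.

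The remaining meningeal genes lay between these. Dcn, the small proteoglycan decorin, had 0.887, 1.03, 2.02, 5.14 and 2.54 CPM in NG2 libraries, against 4.39, 2.89, 3.34, 2.66 and 4.36 CPM in GFAP libraries, with a log2 fold change of -0.60 (SE 0.43; edgeR adjusted p = 0.598). Foxc1, a forkhead factor required for the meninges, had 0.546, 0.344, 0.278, 1.19 and 0 CPM in NG2 libraries, against 1.59, 0.377, 1.9, 0.84 and 0.817 CPM in GFAP libraries, with a log2 fold change of -1.21 (SE 0.70; edgeR adjusted p = 0.5). NG2 library 4 was the highest NG2 library for both, above every GFAP library for Dcn and inside the GFAP range for Foxc1. Without NG2 library 5 the log2 fold change was -0.62 for Dcn and -0.87 for Foxc1. Lum, a proteoglycan akin to decorin, had a log2 fold change of -0.73, Pdgfrl of -0.26 and Slc6a13, a GABA transporter of the meninges, of 0.05, with edgeR adjusted p of 0.642, 0.852 and 0.987. Without NG2 library 5 the log2 fold changes were -0.46 for Lum, 0.00 for Pdgfrl and -0.33 for Slc6a13. Foxd1 had 13 reads in NG2 and 16 in GFAP libraries and was not tested.

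Set beside each other as sums of FPKM, the 3 compartments had overlapping ranges in NG2 and GFAP libraries. The 16 endothelial genes summed to 8.33 ± 3.85 FPKM in NG2 cells (4.9 to 14.4) and 7.31 ± 4.03 FPKM in GFAP cells (3.19 to 13.9). The 14 meningeal genes summed to 227 ± 44.5 FPKM in NG2 cells and 227 ± 11.1 FPKM in GFAP cells. Without Igfbp2 the meningeal sum was 10.1 ± 2.23 FPKM in NG2 cells (8.26 to 13.9) and 13.7 ± 2.5 FPKM in GFAP cells (10.5 to 17; SD, n = 5 each), and the ranges overlapped. The log2 ratio of the mean sums, NG2 over GFAP, was 0.19 for endothelial, -0.14 for mural and 0.00 for meningeal genes, the last being -0.44 without Igfbp2. These sums carry no test, since the genes were chosen with results of these libraries known.

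Genes of other non-neural cells also varied between libraries, not always with the endothelial genes. The choroid plexus genes summed to 11.5 ± 13.7 FPKM in NG2 cells and 79.5 ± 88.1 FPKM in GFAP cells, with GFAP library 1 at 218 FPKM and GFAP library 4 at 112 FPKM. GFAP library 1 was thus the highest GFAP library for both choroid plexus and endothelial genes, whereas NG2 library 4, the highest NG2 library for endothelial genes, had the lowest choroid plexus sum, 3.24 FPKM. Of 3 choroid plexus genes tested, edgeR called 0, with 3 lower at an unadjusted p under 0.05, against 6.33% of all genes. Their median log2 fold change was -1.98, and -2.70 over the 5 tested without NG2 library 5. DESeq2 called 0 of 3 and voom 1 of 3, which was lower. These genes share their libraries and are not independent of each other. The 9 erythroid genes summed to 458 ± 123 FPKM in NG2 cells and 346 ± 115 FPKM in GFAP cells, and GFAP library 1 had 259 FPKM, near the bottom of its group. The 10 microglial genes summed to 125 ± 95.4 FPKM in NG2 cells (21.5 to 280) and 64.2 ± 37.2 FPKM in GFAP cells (30.5 to 124). The 9 melanocyte and neural crest genes summed to 1.77 ± 0.223 FPKM in NG2 cells and 3.06 ± 0.725 FPKM in GFAP cells (SD, n = 5 each). Among them Dct, an enzyme of melanin synthesis, fell to 1.86 ± 0.704 CPM in NG2 cells, against 7.98 ± 3.73 CPM in GFAP cells (log2 fold change -2.10, SE 0.35; edgeR adjusted p = 0.0379). Dct is also known from embryonic forebrain and meningeal tissue, and its part in the meningeal values was not tested.

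**Figure D4:**
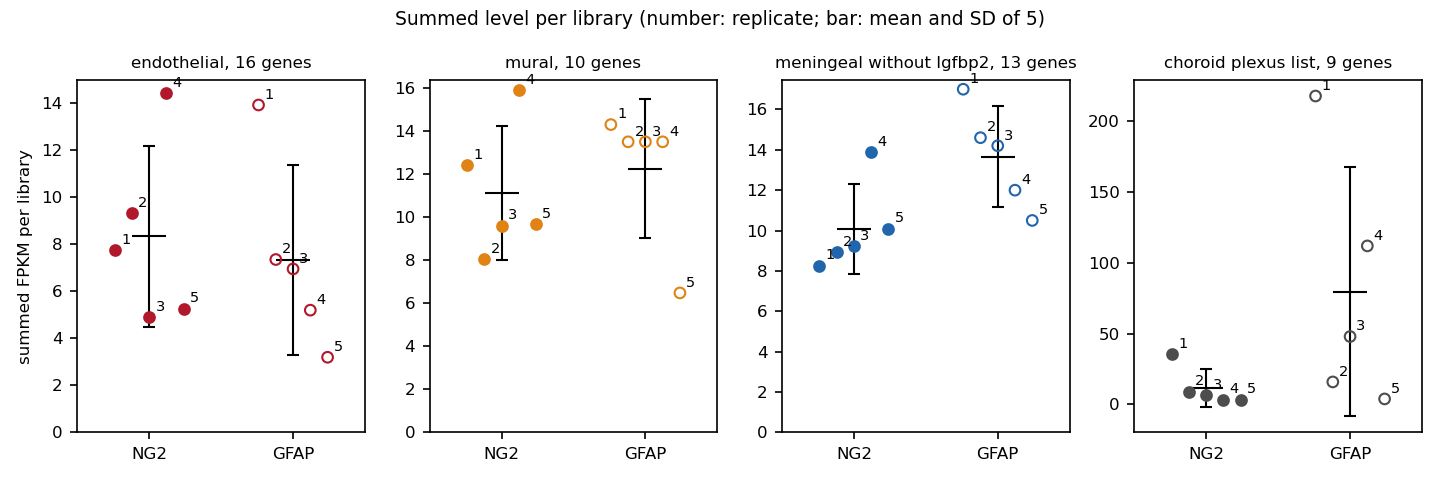
Summed FPKM per library of the endothelial, mural and meningeal genes, the last without Igfbp2, and of the choroid plexus genes, with NG2 libraries left of GFAP libraries and bars for the mean ± SD (n = 5 each). GFAP library 1 is at 13.9 FPKM in the endothelial sum and at 218 FPKM in the choroid plexus sum, and the GFAP mean exceeds the NG2 mean most in the choroid plexus panel.

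The further genes of the same pathways are read against the shares of all genes: 0.148% called by edgeR, 6.45% higher and 6.33% lower at an unadjusted edgeR p under 0.05, 2.29% called by DESeq2 and 8.9% called by voom. Of 11 other endothelial genes tested out of 20, edgeR called 0 (0 at an unadjusted p under 0.05), DESeq2 0 of 4 and voom 0 of 11, and those with the highest CPM were Elk3, an ETS factor, with 7.79 ± 2.33 CPM in NG2 and 9.81 ± 2.15 CPM in GFAP cells, and Ramp2, the co-receptor for adrenomedullin, with 3.98 ± 1.01 CPM in NG2 and 3.32 ± 1.23 CPM in GFAP cells. Of 15 genes of endothelial transport and barrier tested out of 18, edgeR called 0, with 2 higher and 2 lower at an unadjusted p under 0.05. DESeq2 called 2 of 13, both higher, and voom 1 higher and 1 lower of 15. The DESeq2 calls were Slc7a5, a carrier of large neutral amino acids, with a log2 fold change of 0.58 (edgeR adjusted p = 0.2), and Abcg2, an efflux pump, with 0.52 (edgeR adjusted p = 0.153). Slc2a1, the glucose transporter of the barrier, had 63.8 ± 3.64 CPM in NG2 and 77.9 ± 9.77 CPM in GFAP cells (log2 fold change -0.29, SE 0.10; edgeR adjusted p = 0.281). Apcdd1, a Wnt inhibitor of barrier endothelium, had 65.1 ± 19 CPM in NG2 and 64.6 ± 11.7 CPM in GFAP cells. Neural progenitors also express several of these genes.

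Of 16 genes of VEGF, angiopoietin and Notch signalling tested out of 18, edgeR called 0, with 1 higher and 1 lower at an unadjusted p under 0.05. Voom called 1 higher and 1 lower of 16, and DESeq2 called 1 of 14, which was higher. The DESeq2 call was Wnt7b, a neural ligand for brain vessels, with 394 ± 88 CPM in NG2 and 266 ± 54.3 CPM in GFAP cells (log2 fold change 0.57, SE 0.16; edgeR adjusted p = 0.189). Nrp1, a co-receptor of VEGF and semaphorins, had 372 ± 30.8 CPM in NG2 and 380 ± 85.7 CPM in GFAP cells. Of 14 other mural genes tested out of 20, edgeR called 1, Cspg4 itself, DESeq2 1 of 8 and voom 1 of 14, and the fold changes of the 14 divided into 7 positive and 7 negative.

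Of 15 other meningeal fibroblast and matrix genes tested out of 27, edgeR called 0, with 0 higher and 2 lower at an unadjusted p under 0.05. DESeq2 called 0 of 12 and voom 1 of 15, which was lower. The fold change was negative for 11 of the 15, with a median of -0.43, beside 51.5% and -0.01 over all genes. Without NG2 library 5 it was negative for 14 of the 15, with a median of -0.25. The 2 lower genes were Fbln2, a basement membrane fibulin, with 3.37 ± 1.66 CPM in NG2 and 6.11 ± 1.03 CPM in GFAP cells (log2 fold change -0.86; edgeR adjusted p = 0.308), and Col5a1, a fibril-forming collagen chain, with 4.84 ± 1.85 CPM in NG2 and 8 ± 2.88 CPM in GFAP cells (log2 fold change -0.72; edgeR adjusted p = 0.352). Of the list's highest genes by CPM, Fbln1 had 75.2 ± 20.3 CPM in NG2 and 70.5 ± 14.3 CPM in GFAP cells, and Sparc 57.5 ± 13.3 CPM in NG2 and 61.9 ± 8.51 CPM in GFAP cells. The list and the meningeal genes above share their libraries and are not independent of each other.

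Of 11 genes of retinoic acid and IGF binding tested out of 15, edgeR called 0, with 1 higher and 1 lower at an unadjusted p under 0.05. Voom called 3 higher and 1 lower of the 11, and DESeq2 called 1 of 9, which was higher. The DESeq2 call was Igfbp3, with 24 ± 3.4 CPM in NG2 and 13.9 ± 3.22 CPM in GFAP cells (log2 fold change 0.79, SE 0.17; unadjusted p = 0.000382, edgeR adjusted p = 0.119). Igfbp4 had 103 ± 11.9 CPM in NG2 and 87.6 ± 13.3 CPM in GFAP cells (SD, n = 5 each).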

How the data were processed

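RNA of flow-sorted cells was amplified with SMARTer chemistry and sequenced as poly(A) libraries, per the labels' protocols. HISAT2, featureCounts 1.5.0-p3 and GRCm38.p6 are named in the submitters' processing notes, while strand, multiply aligned reads and annotation release are not specified (not given in the sources used here). Gene counts were deposited raw, as whole numbers. The deposited FPKM values are the authors' counts per length, divided by a constant for each library that was 0.9286 to 1.0451 times its total count. The log2 fold changes and p-values of the authors' deposited table were read for comparison only, and its mean signal per group, a scaled count made by the authors, was not used.

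From the counts, R 4.3.3 with edgeR 4.0.16 gave TMM-scaled CPM and a quasi-likelihood test of NG2 over GFAP on the whole table, after filterByExpr by group, with Benjamini-Hochberg adjustment over all genes tested and a threshold of 0.05. A standard error is the log2 fold change divided by the root of its F statistic. Alternatives were DESeq2 1.42.0, limma 3.58.1 (voom with sample weights, and trend on log2 of FPKM plus a pseudocount of 1 or 0.1), other scalings and filters, a replicate block and each library left out. The scripts were tested on simulated data. Sums, sequences and figures were made in Python 3.11.15.

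The members and lists were chosen with earlier results of these data known. Fold changes were to be named for every member called, with an unadjusted p under 0.05 or with groups that did not overlap, and for the 3 most abundant members of each compartment. From each other list every gene called was to be named, or else its 2 genes of highest CPM. Other named genes were added after their values were seen. A further gene that this rule names is not reported here. The counts have no molecular identifiers, so reads from amplified molecules are not independent. Same-numbered NG2 and GFAP libraries deviated together with correlations of -0.021 to 0.083 and were not treated as pairs. The planned ETS and SOX letters were searched as GGAA and ACAAT, and CCAAT, the Sp1 box and the TATA box were added.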

Additional observations from a re-analysis of the deposited data

Results flagged for a closer look

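In groups of 5 libraries, 14 of 86 sets of values had 1 library far from the other 4. The rule flags about 1 in 20 sets of normally distributed values, but many of these sets hold few reads near 0. The 14 are therefore not read as an excess. GFAP library 1 was such a library for 8 genes. It had 8.11 CPM of Cldn5, against 1.23 to 3.2 CPM in the other GFAP libraries, 5.92 CPM of Kdr (0.477 to 1.68 in the others) and 1.71 CPM of Tek (0.14 to 0.455). It also had 3.05 CPM of Tie1 (0.754 to 1.14 in the others), 1.83 CPM of Emcn (0.136 to 0.502) and 2.26 CPM of Eng (0.56 to 0.942). For Foxd1 it had 0.671 CPM (0.0681 to 0.126 in the others) and for Tagln 0.305 CPM (0 to 0.0759). Of these 8 genes 6 are endothelial, and they share the library, so they do not count as separate observations.

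The remaining cases were single genes and 1 sum. NG2 library 1 had 0.682 CPM of Erg, against 0 to 0.138 CPM in the other NG2 libraries. NG2 library 2 had 0.0689 CPM of Tagln and GFAP library 4 0.07 CPM of Ly6c1, each of them the single read of its group. GFAP library 3 had 4.4 CPM of Slco1c1, against 1.26 to 2.01 CPM in the other GFAP libraries, and GFAP library 2 had 0.0628 CPM of Higd1b, below 0.408 to 0.531 CPM in the others. The summed level of the mural genes was 6.48 FPKM in GFAP library 5, below 13.5 to 14.3 FPKM in the other GFAP libraries. NG2 library 5 met this rule for no gene, although 18 of the 40 genes were at 0 reads there. A library at 0 reads meets the rule only where the others of its group lie close together.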

How the results depend on the processing

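None of the members was called in any of the 22 settings run, the edgeR test described above included; at a minimum of 5 CPM in 5 libraries only 7 of the 40 members had a value. Over the whole table the count of genes called higher in NG2 cells was 12, and 58 with no filter, 199 with DESeq2, 584 with voom, 1 with the replicate block and 109 without both NG2 library 5 and GFAP library 2. The count called lower was 12, and 37 with no filter, 128 with DESeq2, 857 with voom, 3 with either FPKM pseudocount, 0 with the replicate block and 154 without both libraries. Leaving out 1 library gave 3 to 70 higher and 0 to 47 lower, the highest being without NG2 library 5. The median fold change ran from -0.38 to 0.41 for endothelial, -0.33 to 0.27 for mural and -0.63 to -0.01 for meningeal members. These medians are not all over the same genes. The meningeal -0.01 came from the 5 CPM minimum, which kept 5 meningeal members. Every other setting kept 12 of them, with medians from -0.63 to -0.15.

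Several fold changes changed sign, most of them small, and the cause was not tested. With voom, Esam was 0.50, Myl9 0.22, Vtn 0.17, Rgs5 0.59 and Igfbp2 -0.02. Slco1c1, the most positive of the 27 genes at 0.92 in the main test, was -0.44 with voom. With library size only, Egfl7 was -0.03, Igfbp2 -0.04 and Col4a1 -0.01. Igfbp2 was -0.01 with upper quartile scaling and at the 5 CPM minimum. With a pseudocount of 0.1, Cldn5 was -0.39, Col4a1 -0.11 and Pdgfrb -0.02, and with 1 Col4a1 was -0.01. With the replicate block, Cldn5 was -0.21, Igfbp2 -0.01, Col4a1 -0.15 and Pdgfrb -0.05; the numbers share no stated origin, and only replicate 2 correlated best with its own number. Without NG2 library 5 and GFAP library 2, Esam was 0.19, Myl9 0.01, Rgs5 0.13 and Pdgfrb -0.13. Leaving out 1 library gave -0.36 to 0.79 for Cldn5, -0.14 to 0.20 for Egfl7, -0.42 to 0.23 for Esam, -0.28 to 0.01 for Myl9, -0.45 to 0.13 for Rgs5, -0.09 to 0.10 for Igfbp2, -0.26 to 0.30 for Col4a1 and -0.22 to 0.46 for Pdgfrb. Crabp2, Col1a1, Col1a2 and Col3a1 were negative in every setting that gave them a value. The log2 ratio of the meningeal sums was -0.44 without Igfbp2. No test was made for 13 members, which had too few reads.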
